A study of Mus musculus with 6 samples.

Results

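The EGF receptor family and the neuregulins were described in mouse hippocampal cultures, either wild type (WT) or with *Fmr1* knocked out (KO). The genes were taken by symbol, as members of the family. All 10 symbols were found among the 47086 loci of the deposited table, namely the receptor genes Egfr, Erbb2, Erbb3 and Erbb4, the neuregulin genes Nrg1, Nrg2, Nrg3 and Nrg4, and the ligand genes Hbegf and Egf. Where a symbol had several loci, the locus with the highest mean was used. This applied to Erbb4, whose second locus, on a scaffold outside the chromosomes, had 0.0084 to 0.0125 FPKM.

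Total RNA was sequenced after 14 days in vitro from 3 WT and 3 *Fmr1* KO libraries, all of C57BL/6 strain and from untreated cultures as far as the labels say. *Fmr1* is the gene of FMRP, which binds RNA and is missing in fragile X syndrome, and the comparison asks which transcripts differ when it is missing. The mouse line carries the loss in every cell type of the culture, and litter and sex of the pups behind each library are not known here. Values are FPKM, fragment counts scaled by transcript length and by library size, so levels can be set side by side between genes.

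ErbB receptors are tyrosine kinases that work in pairs. EGFR binds EGF-type ligands such as EGF and HB-EGF, ERBB3 and ERBB4 bind neuregulins, and ERBB2 has no known ligand of its own and serves as a partner. The ligands are made as membrane-bound precursors and are released by proteases. In the brain, EGFR is known from progenitors and glia, ERBB4 from inhibitory interneurons and ERBB3 from the oligodendrocyte lineage, whereas Nrg1 and Nrg3 are mainly neuronal ligands.

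The FPKM of all loci summed to between 1803679 and 2303083 per library, of which the noncoding RNA Bc1 made up 73.7 to 80.6%. The absolute depth is unknown, and the spread between 3 libraries sets the precision. *Fmr1* transcript had 19.0, 19.5 and 19.7 FPKM in WT, against 23.1, 21.8 and 18.5 in *Fmr1* KO libraries, so its mean was not lower in the group labelled as knockout, although replicate 3 of that group lay below every WT library. The value covers the whole gene and does not check the labels, on which each direction given here rests. The excitatory and inhibitory neuron marker lists summed to at least 1168 and 512 FPKM in each library, so transcripts of the labelled neurons were present. The marker lists of astrocytes, with 1743 to 2050 FPKM, and of the oligodendrocyte lineage, with 412 to 500, were present too. WT replicate 1 stood somewhat apart. It was the lowest of the 6 libraries at 24.4% of the 13195 tested loci, against 12.6 to 16.7% for the other libraries. Among the 2546 tested loci with a span of at least 100 kb, its median deviation from the locus mean was -0.052 on the log2 scale, against -0.002 to 0.028 for the others. The Y-linked transcript Eif2s3y had 9.53 ± 0.233 FPKM (SD, n = 3) in WT, against 21.0 ± 1.42 (SD, n = 3) in *Fmr1* KO. Other Y-linked transcripts were higher too, with log2 changes of 0.66 for Ddx3y, 0.76 for Kdm5d and 0.71 for Uty. Xist, from chromosome X, had 59.9 to 77.9 FPKM in WT and 53.0 to 61.3 in *Fmr1* KO, with a log2 change of -0.27. Y-linked transcripts and Xist were thus both present in every library. The part of the sex of the pups in the values of the ErbB genes was not tested. None of the 10 genes is on chromosome X.

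The 10 genes are given in 3 groups by level, for description only, and the lowest group holds those with a mean below 1 FPKM. Hbegf, Nrg3, Egfr and Erbb4 formed the upper group, with means over the 6 libraries of 10.6, 9.50, 9.38 and 7.05 FPKM. Nrg1, Nrg2 and Erbb2 followed at 2.03, 1.89 and 1.43 FPKM. Nrg4, Egf and Erbb3 were lowest, at 0.800, 0.404 and 0.101 FPKM. Of the 9 neighbouring pairs in this order, 5 had overlapping ranges. Hbegf and Nrg3, Nrg3 and Egfr, Egfr and Erbb4, Nrg1 and Nrg2, and Nrg2 and Erbb2 were thus not separated from each other by their ranges. Within single libraries, Egfr exceeded Erbb4 and Nrg2 exceeded Erbb2 in 6 of 6, Hbegf exceeded Nrg3 and Nrg1 exceeded Nrg2 in 5 of 6, and Nrg3 exceeded Egfr in 4 of 6. Beyond neighbours, all values of Hbegf and Nrg3 lay above all those of Erbb4, and all of Nrg1 above all of Erbb2. The gaps from Erbb4 to Nrg1, from Erbb2 to Nrg4, from Nrg4 to Egf and from Egf to Erbb3 had no overlap in any library. Among the 26981 loci above 0 in any library, Hbegf lay at percentile 76 of mean FPKM and Erbb3 at percentile 33.

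**Figure D1:**
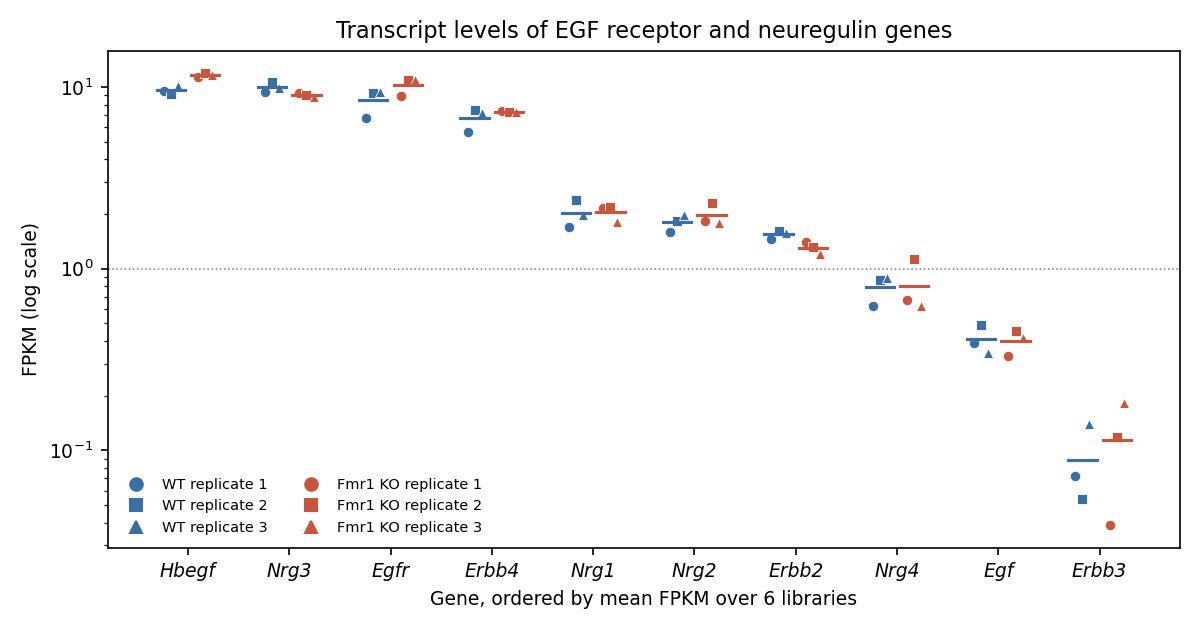
FPKM of the 10 genes on a log axis, in order of their mean, with 1 symbol per library (blue WT, red *Fmr1* KO; the shape gives the replicate number) and a bar at each group mean; the dotted line marks 1 FPKM. Hbegf, Nrg3, Egfr and Erbb4 lie between 5.66 and 11.9 FPKM, and Erbb3 lies below 0.2.

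The genotypes were compared on log2(FPKM + 0.1) with limma over all loci with a mean of at least 1 FPKM in either genotype. This filter kept 7 of the 10 genes, and Erbb3, Nrg4 and Egf fell below it. None of the 7 passed a Benjamini-Hochberg adjusted p of 0.05, a threshold that 0.265% of all tested loci passed (0.0909% with a higher and 0.174% with a lower level in *Fmr1* KO). In limma, 1 gene had an unadjusted p below 0.05, Hbegf, which was higher in *Fmr1* KO, against 14.8% of all tested loci in either direction with 6.99% higher and 7.77% lower. WT and *Fmr1* KO values were fully separated for 3 of the 7 genes, Hbegf on the higher side and Erbb2 and Nrg3 on the lower side, against 21.1% of all tested loci (10.8% higher and 10.3% lower). Of the 7 log2 changes, 5 were above 0 and 2 below, with a median of 0.117, while the median of all tested loci was 0.005. The 95% interval of each of the 7 lay within a change of 1 log2 unit in either direction.

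Egfr (XLOC_026089, chromosome 11, 16752203 to 16913907) encodes the receptor for EGF, TGF-alpha and HB-EGF. It had 6.74, 9.22 and 9.41 FPKM across WT, against 8.96, 10.9 and 11.0 across *Fmr1* KO. The ranges overlapped, since *Fmr1* KO replicate 1 lay below WT replicates 2 and 3, and WT replicate 1 was the lowest of all. The log2 change was 0.29 (standard error 0.13, 95% interval -0.02 to 0.60, limma adjusted p = 0.365), which corresponds to a 1.22-fold higher level. In this fit, which did not pair libraries by number, it was not separated from the spread between replicates. The paper, which ran Cuffdiff on the reads at a p threshold of 0.05, lists Egfr among its genes higher in *Fmr1* KO. Without WT replicate 1 the log2 change was 0.14. Two-sided exact permutation of the 6 values gave p = 0.3.

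Erbb4 (XLOC_001740, chromosome 1, 68031884 to 69110787) encodes a neuregulin receptor that marks many inhibitory interneurons. It had 5.66, 7.44 and 7.24 FPKM in WT, against 7.39, 7.32 and 7.26 in *Fmr1* KO. Apart from WT replicate 1, the 5 other libraries were close to each other. The log2 change, 0.12 (standard error 0.10, 95% interval -0.11 to 0.35, adjusted p = 0.634 in limma), came down to -0.0023 without WT replicate 1. Erbb4 thus showed no difference beyond the spread, and the interval allows at most a 1.28-fold higher level.

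Erbb2 (XLOC_027021, chromosome 11, 98412484 to 98438988), the gene of the shared partner receptor, had 1.46, 1.61 and 1.58 FPKM in WT, against 1.40, 1.31 and 1.21 in *Fmr1* KO. All *Fmr1* KO libraries lay below all WT libraries. The log2 change was -0.23 (standard error 0.15, 95% interval -0.56 to 0.10, adjusted p = 0.504 in limma). The smallest p that an exact permutation of 3 against 3 libraries allows is 0.1. Any fully separated gene reaches it, here Erbb2, Hbegf and Nrg3, so it adds nothing to the separation. In the GENCODE annotation of the same build, exons of Erbb2 share 9 bases with Mien1 on the opposite strand. Mien1 had a mean of 65.0 FPKM, and whether the counting used strand is not given. Mien1 itself had a log2 change of -0.02.

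Erbb3 (XLOC_025921, chromosome 10, 128569368 to 128589501) encodes a neuregulin receptor with a very weak kinase. It was barely detected, at 0.0726, 0.0543 and 0.139 FPKM in WT, against 0.0387, 0.119 and 0.183 in *Fmr1* KO. The ranges overlapped broadly. Without an FPKM minimum, its log2 change was 0.14 (standard error 0.32, limma adjusted p = 0.898), so a difference was not detectable at this level. Mature oligodendrocyte transcripts were also low in the cultures, with Mog at 0 to 0.136 FPKM, whereas the precursor transcript Pdgfra had 57.8 to 81.8.

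The summed FPKM of the 4 receptors was 13.9, 18.3 and 18.4 in WT, against 17.8, 19.7 and 19.7 in *Fmr1* KO. Egfr made up 48.4 to 51.3% of it in WT and 50.4 to 56.1% in *Fmr1* KO, and Erbb4 made up 39.4 to 40.6% and 36.8 to 41.5%. Both ranges overlapped. The share of Erbb2 was 8.60 to 10.5% in WT and 6.15 to 7.88% in *Fmr1* KO, with no overlap. A share within a library does not depend on the scaling of that library, but it depends on the other receptors, here mainly Egfr. These shares were computed with the values in view and are given as descriptions.

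**Figure D2:**
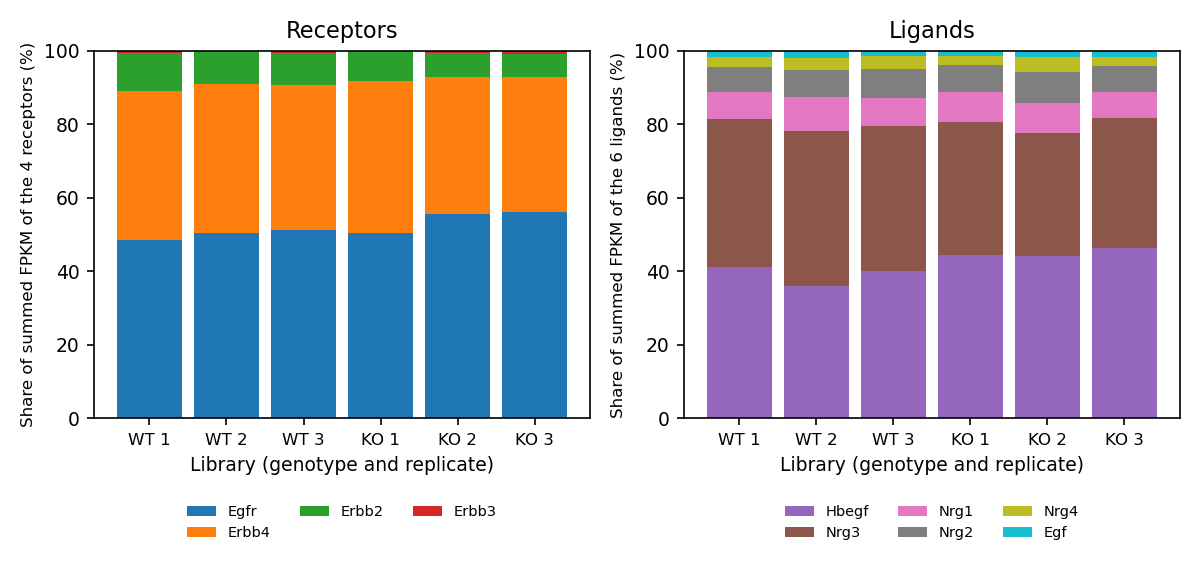
Share of each gene in the summed FPKM of the 4 receptors (left) and of the 6 ligands (right), in percent, with 1 bar per library. Egfr and Erbb4 make up most of the receptor sum and Hbegf and Nrg3 most of the ligand sum, and the Hbegf segment is taller in each *Fmr1* KO library, from 44.2%, than in any WT library, up to 41.2%.

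Hbegf (XLOC_040211, chromosome 18, 36504927 to 36515805) encodes heparin-binding EGF-like growth factor, a ligand of EGFR and ERBB4. It had 9.57, 9.15 and 10.2 FPKM in WT, against 11.3, 11.9 and 11.6 in *Fmr1* KO. The 3 *Fmr1* KO libraries all lay above the 3 WT libraries, and WT replicate 1 was not the lowest here. The log2 change was 0.27 (standard error 0.06, 95% interval 0.13 to 0.41), a 1.21-fold higher level. Its unadjusted p was 0.00215 in limma, and its adjusted p over all tested loci was 0.117, so it missed the threshold. When single libraries were dropped, its log2 change stayed between 0.23 and 0.31. Hbegf has a short span of 10.9 kb, and it lies 306 kb from Nrg2 on the same chromosome.

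Nrg3 (XLOC_033854, chromosome 14, 38365102 to 39476257), a neuronal ligand of ERBB4, was the most abundant neuregulin. It had 9.36, 10.6 and 9.93 FPKM in WT, against 9.23, 9.01 and 8.83 in *Fmr1* KO. The genotypes did not overlap, with a gap between WT replicate 1 and *Fmr1* KO replicate 1 that was small beside the range within WT. The log2 change was -0.14 (standard error 0.07, 95% interval -0.29 to 0.01, adjusted p = 0.369 in limma), and it was -0.09 without WT replicate 2. The antisense transcript Nrg3os, which lies within Nrg3, had 0 to 0.150 FPKM.

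Nrg1 (XLOC_020847, chromosome 8, 31809465 to 32884820) is the founding neuregulin gene and makes many isoforms, with 18 transcripts in the GENCODE annotation that the whole-gene value cannot separate. It had 1.70, 2.38 and 1.98 FPKM in WT, against 2.15, 2.18 and 1.81 in *Fmr1* KO. The *Fmr1* KO libraries lay within the WT range. The log2 change was 0.02 (standard error 0.15, 95% interval -0.32 to 0.37, adjusted p = 0.961 in limma), and it was -0.09 without WT replicate 1. Nrg2 (XLOC_040209, chromosome 18, 36016760 to 36199048), a related ligand of ERBB3 and ERBB4, had 1.60, 1.83 and 1.98 FPKM in WT, against 1.82, 2.31 and 1.78 in *Fmr1* KO. These ranges overlapped too, and the log2 change was 0.12 (standard error 0.15, limma adjusted p = 0.769), or 0.0045 without *Fmr1* KO replicate 2.

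Nrg4 (XLOC_023281, chromosome 9, 55208935 to 55283649), a ligand of ERBB4 known mainly from fat tissue, had 0.623, 0.862 and 0.889 FPKM in WT, against 0.672, 1.13 and 0.621 in *Fmr1* KO. *Fmr1* KO replicate 2 was the highest and *Fmr1* KO replicate 3 the lowest of the 6 libraries. Exons of Nrg4 share 368 bases with Fbxo22 on the opposite strand in GENCODE, and Fbxo22 had a mean of 12.5 FPKM. Egf (XLOC_008116, chromosome 3, 129677574 to 129763882), the gene of epidermal growth factor itself, had 0.389, 0.493 and 0.343 FPKM in WT, against 0.332, 0.453 and 0.415 in *Fmr1* KO. The WT and *Fmr1* KO ranges of Egf overlapped almost fully. Without an FPKM minimum, the limma adjusted p was 1 for Nrg4 and 0.99 for Egf.

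Within the 6 ligands, Hbegf and Nrg3 together made up the bulk of the summed FPKM. Hbegf had 36.1 to 41.2% of it in WT and 44.2 to 46.3% in *Fmr1* KO. Nrg3 had 39.2 to 42.0% in WT and 33.4 to 36.1% in *Fmr1* KO. The ratio of Hbegf to Nrg3 within a library was 1.02, 0.860 and 1.03 in WT, against 1.23, 1.32 and 1.31 in *Fmr1* KO. It was thus higher in each *Fmr1* KO library, and this ratio does not change with the scaling of a library. The pair was chosen after its values were seen, so no test was run on it. The ratio of Egfr to its ligand Hbegf, at 0.705 to 1.01 in WT and 0.791 to 0.953 in *Fmr1* KO, overlapped.

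For part of the genes, the libraries differed in a pattern that genotype did not follow, whereas Hbegf, Erbb2 and Nrg3 were separated by genotype. WT replicate 1 was the lowest of the 3 WT libraries in 7 of the 10 genes, against 37.2% of all tested loci, and it was the lowest of all 6 libraries for Egfr, Erbb4, Nrg1 and Nrg2. Its deviation from the gene mean was -0.45 for Egfr, -0.31 for Erbb4, -0.24 for Nrg1 and -0.21 for Nrg2 on the log2 scale. Erbb4, Nrg1 and Nrg3 span 1079, 1075 and 1111 kb, respectively. Of these, Nrg3 deviated by only -0.02 in WT replicate 1. Egfr, with the largest deviation, spans 162 kb, and Nrg4, at -0.29, spans 74.7 kb. When the trend of each library with span was removed, the log2 change was 0.28 for Egfr and 0.12 for Erbb4.

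**Figure D3:**
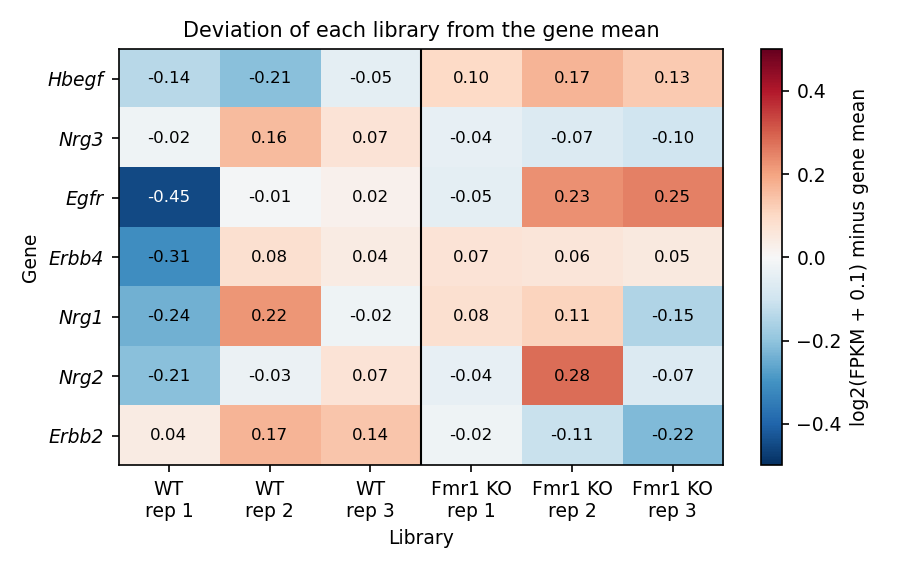
Deviation of each library from the gene mean, as log2(FPKM + 0.1), for the 7 tested genes in order of level; red is above and blue below the mean. The WT replicate 1 column is below the mean in 6 of the 7 rows, by up to 0.45 for Egfr, and the Hbegf row is blue in all WT and red in all *Fmr1* KO libraries.

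The rest of the pathway was taken from a list of 36 genes that act with these receptors, of which 28 were tested. At an unadjusted p below 0.05 there were 3 genes, all higher in *Fmr1* KO, which is 10.7% of the list against 14.8% of all tested loci. None passed an adjusted p of 0.05 in limma. The median log2 change of the 28 was 0.012. The list thus did not stand out from the other loci by these counts.

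Among other ligands, Tgfa and Cspg5 were the tested genes. Tgfa, which encodes the EGFR ligand TGF-alpha, had 13.0, 14.4 and 14.9 FPKM in WT, against 11.5, 13.5 and 13.7 in *Fmr1* KO, and so had a higher mean level than Hbegf or Egf. Its log2 change was -0.13 (adjusted p = 0.503 in limma), with overlapping ranges. Cspg5, which encodes the neuronal proteoglycan neuroglycan C with an EGF-like domain, had a mean of 129 FPKM and a log2 change of -0.08. Areg, Ereg, Btc and Epgn were each below 0.25 FPKM in every library.

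Of the genes for ligand release, Adam10, a shedding protease, had 23.3, 25.1 and 25.0 FPKM in WT, against 26.7, 26.4 and 27.8 in *Fmr1* KO. The *Fmr1* KO libraries all lay above WT, and the log2 change was 0.14 (standard error 0.05, limma adjusted p = 0.271). Adam17, the main sheddase of EGFR ligands, had a log2 change of -0.02, and Bace1, which cleaves neuregulin 1, had 0.03. The lowest value in this group was that of Nrdc, an enhancer of shedding listed under its older symbol Nrd1, at -0.04 (limma adjusted p = 0.698). Its *Fmr1* KO libraries, at 40.7 to 40.8 FPKM, all lay below those of WT, at 41.3 to 42.8.

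Of the 11 tested adaptors and effectors, none was below an unadjusted p of 0.05. Plcg1, which encodes a phospholipase bound by active receptors, had the highest log2 change, 0.23 (95% interval -0.00 to 0.46). Shc3, the gene of a neuronal adaptor, had the lowest, -0.04, with a wide interval of -0.51 to 0.42. Its FPKM was 20.5, 34.3 and 33.1 in WT, against 21.8, 31.6 and 30.7 in *Fmr1* KO, so replicate 1 was the lowest in each genotype. Grb2, the adaptor that links the receptors to Ras, had a mean of 41.5 FPKM and a log2 change of -0.01.

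Of the 10 tested genes that restrain the receptors or turn them over, Lrig1 and Lrig2 were below an unadjusted p of 0.05. Both encode membrane proteins with leucine-rich repeats, and LRIG1 is known to promote the loss of ErbB receptors from the cell. Lrig1 had 28.9, 30.3 and 35.1 FPKM in WT, against 33.8, 37.8 and 37.2 in *Fmr1* KO, which overlapped, and the log2 change was 0.21 (standard error 0.08, limma adjusted p = 0.275). Lrig2 had 6.50, 7.03 and 7.30 in WT, against 8.14, 8.44 and 7.71 in *Fmr1* KO, which did not overlap, and the log2 change was 0.22 (standard error 0.07, limma adjusted p = 0.223). Spry4, a feedback inhibitor, had the lowest value of the group at -0.07. Errfi1, a direct inhibitor of EGFR, was listed at 0 in all libraries, which need not mean that it was absent.

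**Figure D4:**
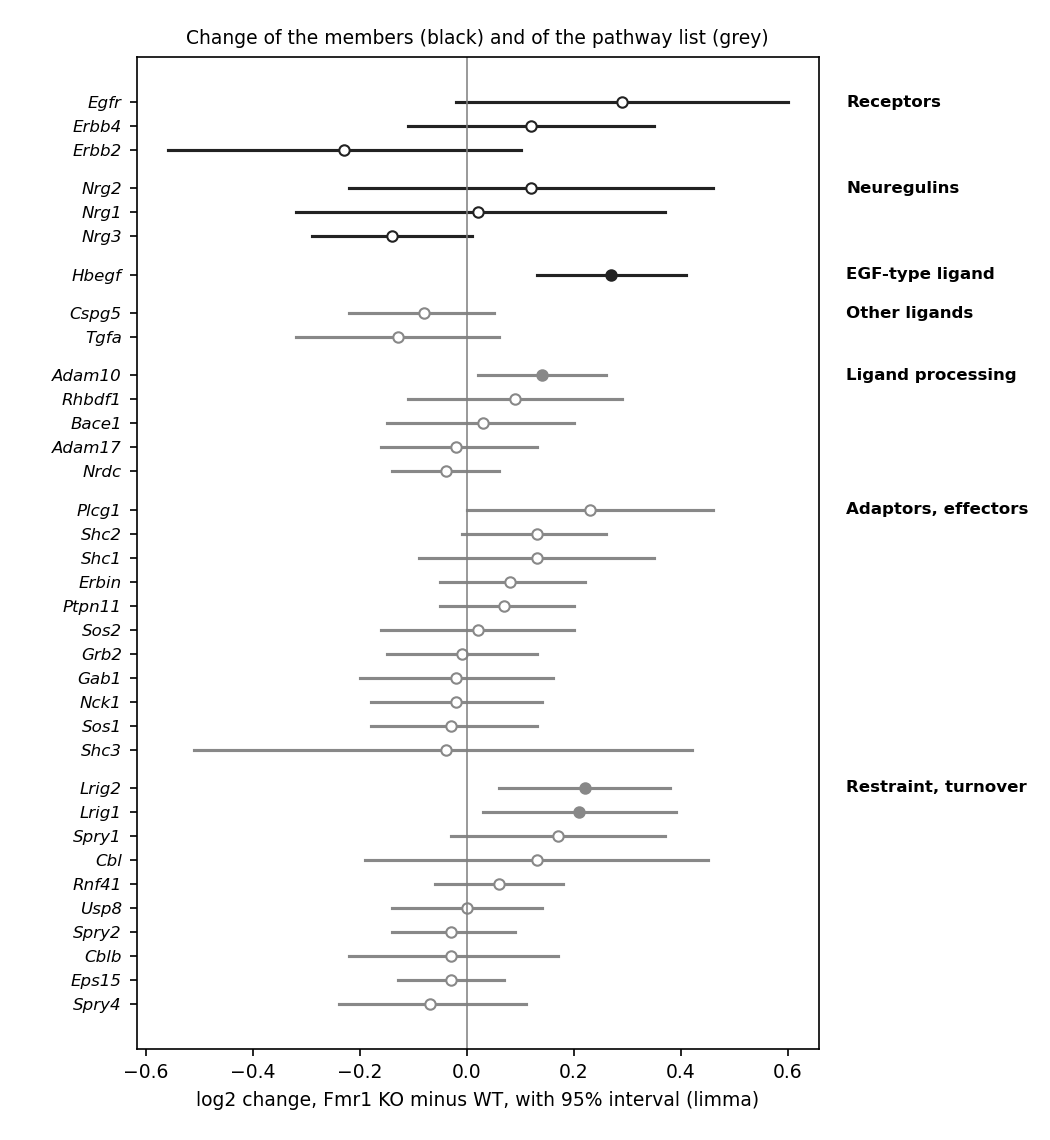
Log2 change of *Fmr1* KO minus WT with its 95% interval from limma, for the 7 tested EGF receptor and neuregulin genes (black) and the 28 tested genes of the pathway list (grey); filled points are below an unadjusted p of 0.05. Hbegf is the only black filled point, at 0.27, and Adam10, Lrig1 and Lrig2 are the grey ones; none passed an adjusted p of 0.05.

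Markers of cell types known to express these genes were compared in the same fit, since in bulk RNA fewer cells of a type and less RNA per cell cannot be told apart. The proliferation list differed in the same direction as Hbegf. Its 10 genes were all above 0, with a median log2 change of 0.283 and 7 below an unadjusted p of 0.05, a threshold passed by 14.8% of all tested loci (6.99% higher and 7.77% lower). They summed to 59.8 to 65.5 FPKM in WT and 72.9 to 77.7 in *Fmr1* KO, and none was at 0. In the oligodendrocyte lineage list, Pdgfra and Olig2 were higher at an unadjusted p below 0.05, and the list summed to 412 to 475 FPKM in WT and 445 to 500 in *Fmr1* KO. The astrocyte list, with 3 of 10 genes lower at that threshold and 1 of them at an adjusted p below 0.05 in limma, summed to 1743 to 2050 and 1799 to 1995. The part of these cells in the values of Hbegf and Egfr was not tested.

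For Erbb4 and the neuregulins, the neuron lists are the nearest, and their counts are read against the same shares of all tested loci. Of 9 tested inhibitory neuron markers, at an unadjusted p below 0.05 3 were higher and 2 were lower, and the list summed to 520 to 525 FPKM in WT and 512 to 562 in *Fmr1* KO. Pvalb was below 1 FPKM in every library. Of 10 excitatory neuron markers, 1 was higher and 1 lower, and the list summed to 1168 to 1221 and 1197 to 1277. The other lists were small. Microglia markers summed to 6.15 to 8.41 FPKM in WT and 1.49 to 2.59 in *Fmr1* KO, with Tmem119 and Aif1 at 0. The 4 tested genes, C1qa, C1qb, C1qc and Lyz2, were lower at an unadjusted p below 0.05, 1 of them also after adjustment in limma. Each reached the 1 FPKM minimum in WT only, so the filter itself favoured a lower level in *Fmr1* KO. Their count is therefore not read as a result. Below the minimum, Csf1r and Trem2 had overlapping ranges, and Cx3cr1 and P2ry12 were lower in all *Fmr1* KO libraries. Endothelial markers summed to 3.59 to 3.75 and 2.26 to 2.97, with Cldn5 at 0, and 1 gene, Kdr, was tested. Fibroblast and mural cell markers summed to 47.7 to 52.3 and 39.1 to 47.1, with 1 of 4 tested genes, Dcn, lower at an unadjusted p below 0.05. Dcn made up most of the sum, with means of 42.0 FPKM in WT and 34.8 in *Fmr1* KO. Of the others, Col1a1, Col1a2, Col3a1 and Rgs5 had higher means in *Fmr1* KO, and Lum, Pdgfrb and Acta2 had lower ones.

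The loci whose pattern over the 6 libraries was most like that of Hbegf were found by the root mean square difference of the centred log2 values among 12840 candidates. They were Plk1, a mitotic kinase gene that is also on the proliferation list, at 0.021, Gas2l1, a cytoskeletal linker gene, at 0.032, and Inpp5e, a phosphoinositide phosphatase gene, at 0.033. For Erbb4 they were Cdk7, a kinase gene of transcription and the cell cycle, at 0.027, and Phf21a and Ddr2, each at 0.035. These are descriptions over 6 libraries, which all genes share, and for Erbb4 the likeness includes the low value of WT replicate 1.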

How the data were processed

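RNA-seq of 3 WT and 3 *Fmr1* KO hippocampal cultures was used, grouped by the sample labels. Per the methods, the authors clipped and trimmed reads, mapped them to GRCm38 with TopHat2 and ran Cufflinks and Cuffdiff; the sources used here give no versions, annotation, strand or library scaling. FPKM of 47086 loci (48100 rows) in each library were deposited by the authors. Its group FPKM, fold change, p and q columns from Cuffdiff were not used. Locus starts are counted from 0 in the table and from 1 here, and a locus spans all genes that overlap there. Each locus was tested once on log2(FPKM + 0.1) with limma 3.58.1 in R 4.3.3, fitting genotype alone with a mean-variance trend. P-values were adjusted by Benjamini-Hochberg over the 13195 loci whose mean reached 1 FPKM in WT or in *Fmr1* KO. A log2 change on this scale understates that of weakly expressed genes. The tests are two-sided, and p-values measure the spread between these libraries, which may be technical. The method was tested on simulated data. Exons and strand were taken from GENCODE M21 (GRCm38). The genes and lists were chosen with earlier results of these data known. All 10 members are named, as are pathway genes below an unadjusted p of 0.05 or at either end of their group. Adam17, Bace1, Grb2, Pdgfra, Olig2, Kdr, the microglia, fibroblast and mural cell genes and the genes listed at or near 0 were added after seeing values. Alternatives changed the pseudocount (1 or 0.01) or the FPKM minimum (none or 5), or used centring, removal of the trend with span, limma without the mean-variance trend, a replicate block and each library left out.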

Additional observations from a re-analysis of the deposited data

How the results depend on the processing

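No member and no pathway gene passed an adjusted p of 0.05 under any of the 14 alternatives; at an unadjusted p below 0.05, 1 member and 3 pathway genes had been counted. Hbegf stayed higher in all 14, with a log2 change of 0.23 to 0.31, an unadjusted p below 0.05 in each and an adjusted p of 0.0938 to 0.374. The count of members below an unadjusted p of 0.05 became 2 with the span trend removed (adding Nrg3), without the mean-variance trend (adding Erbb2) and with the replicate block (adding Egfr), and was 1 to 2 with single libraries left out. The count of pathway genes became 5 with the span trend removed and 5 with the replicate block, and was 1 to 4 with single libraries left out; it was lowest without *Fmr1* KO replicate 2 or 3. Direction reversed for Erbb4, at -0.0023 to 0.19 with single libraries left out, and for Nrg1, at -0.09 to 0.14. For Egfr that range was 0.14 to 0.39, lowest without WT replicate 1. Of the neighbouring pairs in the level order, 3 to 5 overlapped, with 3 without WT replicate 1 or 2. The order itself also changed without WT replicate 1 and without WT replicate 2, and it stayed the same when any other single library was left out. The cause of these changes was not tested. Same-numbered libraries of the genotypes deviated with correlations of 0.243, 0.058 and 0.08. Differently numbered ones had -0.152 to 0.078, and those with a replicate 1 were all negative, from -0.152 to -0.119. Replicate 1 of both genotypes thus shared part of its deviation, whereas replicates 2 and 3 were not told apart by number. The labels state no pairing, so the main fit left it out. Under the replicate block, the standard error of Egfr was 0.06, against 0.13 in the main fit. Its unadjusted limma p was then 0.00257, and the adjusted p was 0.0903 for Egfr and 0.0967 for Hbegf.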
